A study of Caenorhabditis elegans with 24 samples.

Results

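Translation initiation factors are the proteins that bring the ribosome, the initiator methionyl-tRNA and the mRNA together at a start codon. Their genes were taken as every gene of the count files whose WormBase symbol begins with eif-, ife-, ifg-, iff- or iftb-, which gave 32 of 19669 genes. They encode factors of the 43S complex, eIF2, eIF2B, eIF3, eIF4E, eIF4G, eIF5A and eIF6, 2 further carriers of methionyl-tRNA, and eIF4A3, and the symbols alone decided membership. The mRNA and the ribosome footprints (the mRNA stretches covered by ribosomes) of adult Caenorhabditis elegans had been sequenced in 8 groups of 3 libraries. These groups were a metl-5 mutant at 37 °C, the same mutant at 20 °C, wild type N2 (WT) at 37 °C and WT at 20 °C, each for mRNA and for footprints. The mutant carries a deletion of C38D4.9 (metl-5), which encodes a methyltransferase known to place N6-methyladenosine on ribosomal RNA. How long the animals were at 37 °C, and whether the replicates came from separate cultures, is not given in the sources used here, so p-values measure the spread between these libraries only, which may be technical.

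In the scanning pathway, eIF2 with GTP carries methionyl-tRNA to the small ribosomal subunit, eIF1, eIF1A and eIF3 join it there, and eIF4E bound to the mRNA cap recruits the subunit through the scaffold eIF4G. eIF2B returns eIF2 to its GTP form, and phosphorylation of eIF2 under stress blocks that step. C. elegans has several cap-binding eIF4E proteins with partly separate tissues, and a germline and a somatic form of eIF5A, a factor that in spite of its name also acts in elongation and termination. Heat is known to lower translation as a whole in many organisms.

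The deleted gene checked the labels. The metl-5 mRNA level, in counts per 1000000 of the scaled library total (scaled CPM), was 2.45 to 4.29 at 37 °C and 1.51 to 2.15 at 20 °C in mutant libraries, against 6.48 to 12 at 37 °C and 5.74 to 9.30 at 20 °C in WT libraries. In footprints it was 1.25, 7.77 and 5.30 scaled CPM at 37 °C and 0.869, 2.37 and 1.14 at 20 °C in the libraries labelled metl-5, against 5.43 to 8.14 at 37 °C and 4.44 to 7.01 at 20 °C in WT libraries. The footprint libraries labelled metl-5 37 °C replicates 2 and 3 thus lay within the range of the 6 WT footprint libraries and went against their label for the deleted gene, and replicate numbers of metl-5 footprints at 37 °C below name libraries by these labels. An mRNA library held 15522050 to 17239906 gene counts. A footprint library held 4410194 to 10947947 at 37 °C and 11503305 to 19012050 at 20 °C. All 32 genes passed the filter on low counts in each assay, and the smallest count of any of them in 1 library was 42 for mRNA (ife-4) and 43 for footprints (ife-5). In 6 footprint libraries the counts went partly against the labels: 4 held at least 10 counts of transcripts that mark the other strain (metl-5 37 °C replicates 2 and 3, WT 37 °C replicate 3, WT 20 °C replicate 2), while 2 had a level of the heat-shock gene hsp-70 between those of the temperatures (WT 37 °C replicate 2, metl-5 20 °C replicate 2). No mRNA library showed such counts. The mRNA of hsp-70 rose at 37 °C, with log2 changes of 8.31 in metl-5 and 8.75 in WT animals. The mRNA libraries numbered 3 stood apart at 20 °C: replicate 3 was at least 1.5-fold below the other replicates for 8 initiation factor genes in both strains, and at least 1.5-fold above them for 5 others, while replicates 1 and 2 stood apart in this way in both strains for 0 genes. Results are therefore also given without these libraries. The animals were whole adults, and markers of intestine, muscle, hypodermis, germline and oocytes were all detected. In such bulk samples fewer cells of a type and less RNA per cell cannot be told apart.

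Levels per kilobase of transcript (mRNA) or of coding sequence (footprints) set the genes on one scale. The eIF5A gene iff-1, the germline form, had the highest mRNA level of the 32 genes in all 4 groups, with 4125 ± 568 scaled CPM per kb at 37 °C and 2213 ± 561 at 20 °C in metl-5 animals, and 3961 ± 538 and 2698 ± 232 in WT animals at those temperatures (SD, n = 3). Its footprint level was also the highest of the 32 at 20 °C, with 2480.1 ± 411 per kb in metl-5 and 2746 ± 351 in WT animals. At 37 °C its footprints had rank 5 in metl-5 and rank 3 in WT animals, with 602 ± 73.6 and 1050.4 ± 968 per kb, below eif-1 and eif-1.A in both, and the large WT SD came from replicate 2, a library of intermediate hsp-70. Among the eIF4E genes, ife-1 and ife-3 had the most footprints per kb and ife-4 and ife-5 the fewest: in WT at 20 °C the levels were 781 ± 78.7 for ife-1, 665 ± 147 for ife-3, 148 ± 14.5 for ife-2, 19.1 ± 1.75 for ife-4 and 11.6 ± 0.915 for ife-5. The difference between ife-1 and ife-3 was within their spread, and the other steps in this order were larger than it. The eIF2B subunits lay together near the low end in the same group, from 41.9 ± 6.09 (eif-2Bepsilon) to 63.3 ± 7.60 footprint scaled CPM per kb (eif-2Balpha), below each of the eIF3 subunits.

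**Figure D1:**
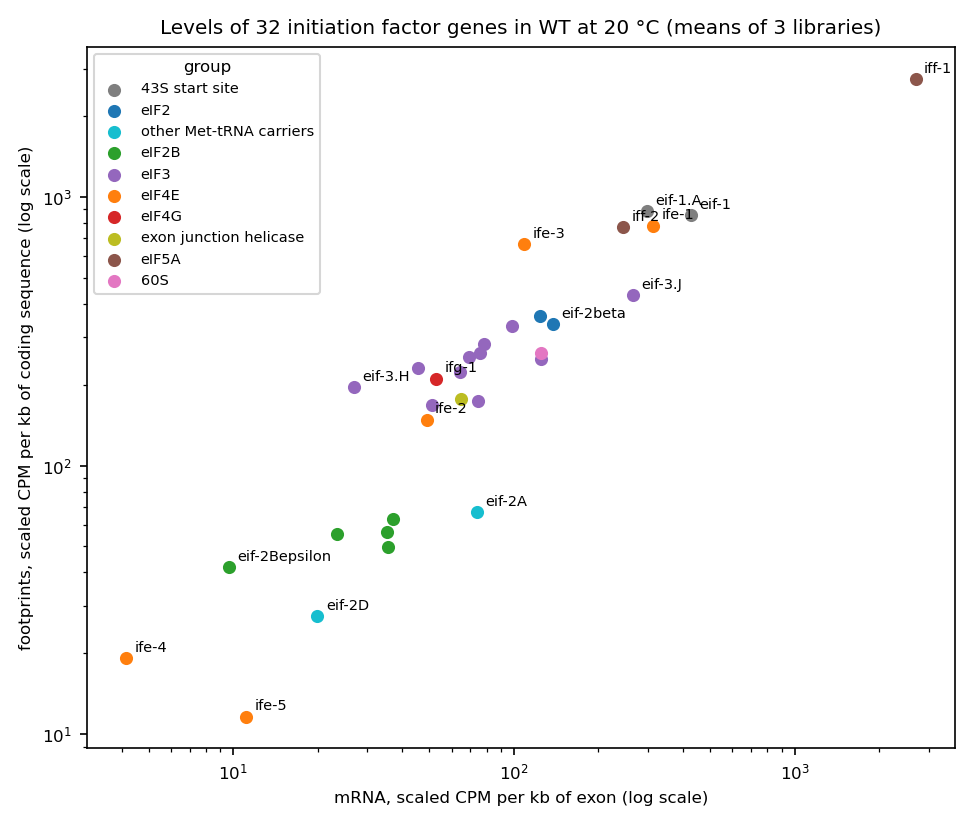
Mean footprint level (scaled CPM per kb of coding sequence, log axis) against mean mRNA level (scaled CPM per kb of exon, log axis) of the 32 genes in the 3 WT libraries at 20 °C, coloured by factor group. The germline eIF5A gene iff-1 lies highest on both axes, and the eIF4E genes spread from ife-1 and ife-3 to ife-4 and ife-5.

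The main contrast of the design was 37 °C against 20 °C within each strain. The mRNA value was higher at 37 °C for 23 of the 32 genes in metl-5 and 22 in WT animals. The eIF2 genes eif-2beta and eif-2gamma and several eIF3 subunits rose in both strains, and eIF4G mRNA fell. In the footprints eIF4G (ifg-1) fell in both strains and germline eIF5A (iff-1) in metl-5 animals, while eif-2Bdelta and eif-3.F rose in both. With replicate number fitted as a pairing term (a block), iff-1 footprints also fell in WT animals. Relative to their mRNA, footprints fell in both strains for both eIF5A genes, for eIF2A, for the cap-binding gene ife-1 and for 2 eIF3 subunits. A gene is called here where the quasi-likelihood test of edgeR gave a Benjamini-Hochberg adjusted p of 0.05 or less over all genes tested, and changes are log2 values ± SE.

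For mRNA, 11 of the 32 genes were called higher and 1 lower in metl-5 animals, against a background of 10.8% higher and 9.16% lower (20.0% in either direction) of all genes tested. In WT animals 8 were higher and 1 lower, against 9.76% and 8.5% (18.3% in either direction). The median change of the 32 genes was 0.33 in metl-5 and 0.41 in WT animals, and that of all genes -0.01 and -0.02. The genes called higher in both strains were eif-2beta, eif-2gamma, eif-3.B, eif-3.D, eif-3.G, eif-3.I and ife-1, and ifg-1 was called lower in both. In metl-5 animals eif-3.H, iff-1, iff-2 and ife-3 were also called higher, and in WT animals ife-2 was. DESeq2 called 12 genes in metl-5 (background 25.4%) and 9 in WT animals (background 24.2%). Without the 4 mRNA libraries numbered 3, a choice made after the data were seen, 1 gene was called in metl-5 (eif-3.D, higher) and 0 in WT animals by edgeR (13 and 9 of the 32 had an unadjusted p under 0.05), while the share of all genes called was 3.59% and 3.1%. With libraries scaled by their totals alone the median change of all genes was -0.60 in metl-5 and -0.49 in WT animals, and the split of calls became 0 higher and 6 lower in metl-5 (background 28.6%) and 0 higher and 1 lower in WT animals (background 23.9%), so the changes given here are relative to the bulk of the transcripts. On that scale 14 of the 32 mRNA values in metl-5 and 15 in WT animals were positive.

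Footprints of 3 genes were called higher and of 5 lower in metl-5 animals, where 12.2% and 14.7% of all genes were (26.9% in either direction). In WT animals the counts were 2 higher and 1 lower, against 9.78% and 6.93% (16.7% in either direction). DESeq2 called 13 genes in metl-5 (background 32.7%) and 8 in WT animals (background 27.0%). By edgeR, higher in both strains were eif-2Bdelta and eif-3.F, and lower in both was ifg-1. In metl-5 animals eif-1 was also called higher, and eif-6, eif-2A, eif-3.D and iff-1 lower. The medians were 0.41 and 0.44, against -0.05 and -0.03 for all genes. Fitted with a block for replicate number, which paired these libraries, 11 were higher and 5 lower in metl-5 (background 39.5%) and 9 higher and 4 lower in WT animals (background 31.3%). The calls this added in both strains were eif-1.A, eif-2Balpha, eif-2Bbeta, eif-3.E, eif-3.H and eif-3.I, all higher. It also added eif-2Bepsilon and eif-3.L (higher) in metl-5, and eif-1 (higher), eif-2A, eif-3.D and iff-1 (lower) in WT animals, and it ended none. With library totals alone, 6 were higher and 5 lower in metl-5 (background 27.0%) and 3 higher and 1 lower in WT animals (background 17.9%). Without the 2 libraries of intermediate hsp-70 the counts were 3 and 6 in metl-5 (34.7%) and 13 and 4 in WT animals (39.3%). Without all 6 doubted libraries they were 3 and 5 (22.6%) and 1 and 4 (21.0%), with eif-6 lost and iff-2 (lower) gained in metl-5, and eif-2Bdelta lost and eif-2A, eif-3.D and iff-1 (lower) gained in WT animals.

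Translational efficiency, the change of footprints relative to the change of mRNA, was called higher for 3 and lower for 7 genes in metl-5 animals (background 10.4% and 10.4%, 20.8% in all). In WT animals it was called higher for 0 and lower for 6 genes (background 10.7% and 8.68%, 19.4% in all). DESeq2 called 10 genes in metl-5 (background 24.1%) and 7 in WT animals (background 23.0%). The 6 genes lower in both strains by edgeR were eif-2A, eif-3.B, eif-3.D, ife-1, iff-1 and iff-2. In metl-5 animals eif-6 was also called lower, and eif-1, eif-2Bbeta and eif-2D higher. Without the 4 mRNA libraries numbered 3, the calls were 5 lower in metl-5 (iff-1, iff-2, eif-3.D, eif-3.B and eif-6; background 9.85%) and 2 lower in WT animals (iff-2 and eif-3.D; background 7.99%). Without the 2 footprint libraries of intermediate hsp-70, 3 were higher and 7 lower in metl-5 (background 23.0%) and 6 higher and 6 lower in WT animals (background 27.1%). Without all 6 doubted footprint libraries, 1 was higher and 4 lower in metl-5 (background 14.0%) and 0 higher and 4 lower in WT animals (background 12.5%), the lower ones being eif-2A, eif-3.B, eif-3.D and iff-1 in both. With scaling by library totals alone, a scale on which the median efficiency change of all genes was 0.54 in metl-5 and 0.50 in WT animals, the split was 8 higher and 2 lower in metl-5 (background 25.3%) and 8 higher and 1 lower in WT animals (background 23.1%). The lower calls were then iff-1 and eif-3.D in metl-5 and eif-3.D in WT animals.

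**Figure D2:**
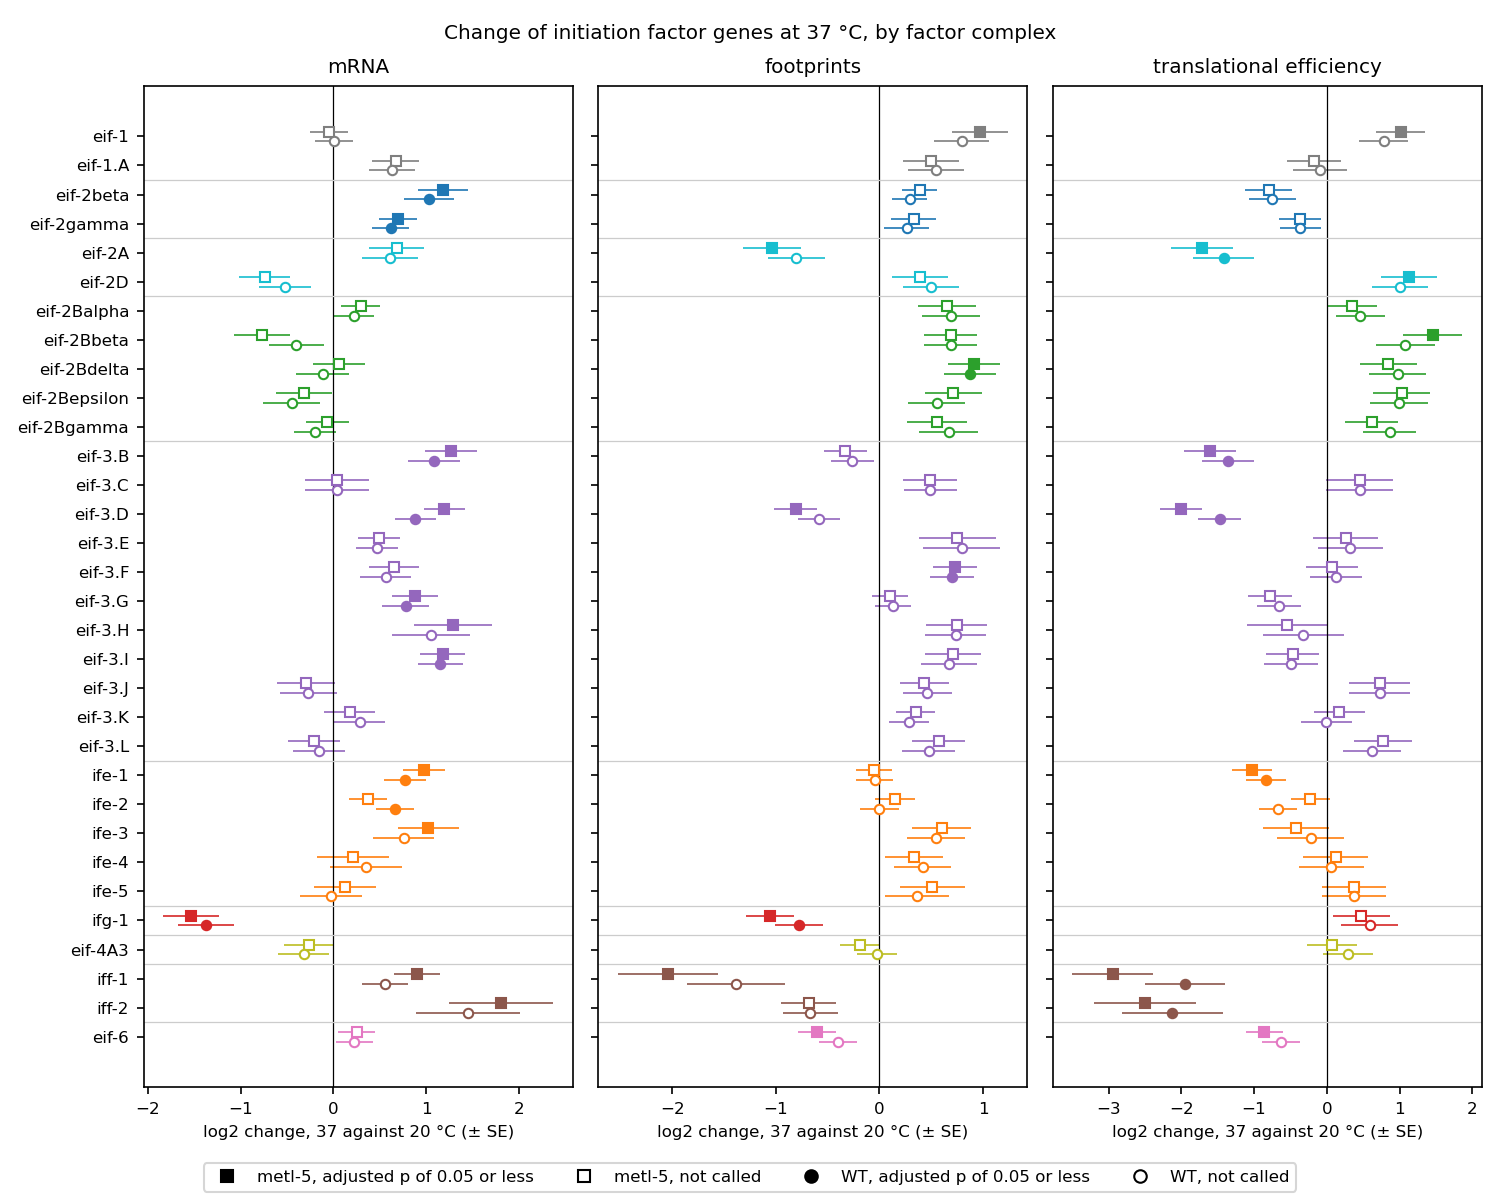
Log2 change at 37 against 20 °C (horizontal axis, ± SE) of mRNA (left), footprints (middle) and translational efficiency (right) for the 32 genes, with squares for metl-5 and circles for WT animals, filled where the adjusted p was 0.05 or less, and colours and lines separating the factor groups. The squares and circles lie close together for most genes and further apart for iff-1 in translational efficiency (-2.94 in metl-5, -1.95 in WT animals). ifg-1 lies far left in mRNA, and the eIF5A genes iff-1 and iff-2 lie right of 0 in mRNA and left of 0 in the other panels.

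The genes are taken below in the order in which their factors act. In the 43S complex, eif-1 and eif-1.A encode eIF1 and eIF1A, which hold the scanning ribosome open and secure start-codon choice. The footprint level of eif-1 was 554, 405 and 669 scaled CPM at 37 °C against 264, 286 and 279 at 20 °C in metl-5 animals. In WT animals the values were 514, 309 and 635 at 37 °C against 247, 271 and 323 at 20 °C. The 37 °C libraries were above the 20 °C libraries in metl-5 animals, and overlapped in WT animals through the replicate 2 library of intermediate hsp-70. Its footprints rose in metl-5 animals, and the changes were 0.97 ± 0.269 (adjusted p = 0.0227) in metl-5 and 0.79 ± 0.268 (adjusted p = 0.0567) in WT animals. With the block the footprint rise of eif-1 was called in WT animals too. Its mRNA changes were -0.05 in metl-5 and 0.01 in WT animals. With library totals alone they were -0.63 in metl-5 animals, called lower, and -0.46 in WT animals, not called. Its translational efficiency rose in metl-5 animals, with values of 1.02 ± 0.336 (adjusted p = 0.0336) in metl-5 and 0.78 ± 0.335 (adjusted p = 0.108) in WT animals. For eif-1, leaving out 1 library ended the footprint call in metl-5 animals in 4 of 12 fits (adjusted p up to 0.0879) and the efficiency call in metl-5 animals in 7 of 24 fits (adjusted p up to 0.112). For eif-1.A no change was called in the main edgeR fit (all libraries, TMM scaling, no block). Its mRNA changes in that fit were 0.67 ± 0.250 (adjusted p = 0.0688) in metl-5 and 0.63 ± 0.250 (adjusted p = 0.089) in WT animals. With the block, eif-1.A footprints were called higher in both strains, at 0.49 (adjusted p = 0.0438) in metl-5 and 0.52 (adjusted p = 0.043) in WT animals, against 0.50 ± 0.267 (adjusted p = 0.169) in metl-5 and 0.55 ± 0.268 (adjusted p = 0.149) in WT animals without it.

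The eIF2 genes analysed were eif-2beta and eif-2gamma, which encode subunits of the carrier of methionyl-tRNA, gamma being the subunit that binds GTP and the tRNA. No gene for the alpha subunit of eIF2 was among the 32, so eIF2 was not covered as a whole. Both rose in mRNA in both strains, and with library totals alone their values stayed positive but neither was called. The mRNA level of eif-2beta was 312, 303 and 308 scaled CPM at 37 °C against 152, 159 and 96.0 at 20 °C in metl-5 animals, and 313, 287 and 335 at 37 °C against 157, 205 and 94.1 at 20 °C in WT animals. That of eif-2gamma was 330.1, 305 and 349 scaled CPM at 37 °C against 193, 189.9 and 224 at 20 °C in metl-5 animals, and 315, 292 and 350.1 at 37 °C against 173, 209.6 and 241 at 20 °C in WT animals. For both genes every 37 °C library was above every 20 °C library of its strain, and for eif-2beta the lowest 20 °C value was that of replicate 3 in both strains. The changes of eif-2beta mRNA were 1.18 ± 0.271 (adjusted p = 0.00732) in metl-5 and 1.03 ± 0.271 (adjusted p = 0.0161) in WT animals. Those of eif-2gamma mRNA were 0.70 ± 0.203 (adjusted p = 0.0252) in metl-5 and 0.62 ± 0.203 (adjusted p = 0.0454) in WT animals. With the mRNA libraries numbered 3 left out they were 0.98 (adjusted p = 0.0643) in metl-5 and 0.73 (adjusted p = 0.159) in WT animals for eif-2beta. For eif-2gamma they were 0.73 (adjusted p = 0.138) in metl-5 and 0.66 (adjusted p = 0.183) in WT animals. For eif-2beta, leaving out 1 library ended the mRNA call in metl-5 animals in 0 of 12 fits and the mRNA call in WT animals in 2 of 12 fits (adjusted p up to 0.0743, without WT 20 °C mRNA replicate 3 or WT 37 °C mRNA replicate 3). For eif-2gamma, leaving out 1 library ended the mRNA call in metl-5 animals in 4 of 12 fits (adjusted p up to 0.0919) and the mRNA call in WT animals in 10 of 12 fits (adjusted p up to 0.158). An antisense non-coding gene overlaps eif-2gamma, whose reads cannot be told apart in these unstranded counts. Footprints of neither gene were called, at 0.39 in metl-5 and 0.29 in WT animals for eif-2beta and 0.33 in metl-5 and 0.26 in WT animals for eif-2gamma.

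The 5 eIF2B genes encode the exchange factor that recharges eIF2, the step that is blocked in the integrated stress response, with the catalytic site in the epsilon subunit. All 5 had positive footprint changes in both strains, from 0.56 to 0.91 in metl-5 and from 0.55 to 0.87 in WT animals. Of the 5, 1 (eif-2Bdelta) was called higher in each, against 12.2% and 9.78% of all genes. No mRNA change was called in the main fit, and 2 of 5 values in metl-5 and 1 of 5 in WT animals were positive. With the block (30.4% of all genes called), eif-2Bbeta mRNA was called lower in metl-5 animals. With library totals alone (28.6%), 1 of the 5 was. How many of the 5 were called higher in footprints varied with the setting. The replicate block called 4 in metl-5 (39.5% of all genes in either direction) and 3 in WT animals (31.3%). DESeq2 called 3 (32.7%) and 2 (27.0%), and library totals alone 3 (27.0%) and 1 (17.9%). Without the 2 libraries of intermediate hsp-70 the counts were 1 (34.7%) and 5 (39.3%), and without all 6 doubted libraries 1 (22.6%) and 0 (21.0%). The footprint level of eif-2Bdelta was 189, 149 and 213 scaled CPM at 37 °C against 84.8, 112 and 95.3 at 20 °C in metl-5 animals. The WT values were 151, 111 and 223 at 37 °C against 76.2, 91.9 and 96.7 at 20 °C. Every 37 °C library lay above the 20 °C libraries of its strain. The footprint changes were 0.91 ± 0.255 (adjusted p = 0.0236) in metl-5 and 0.87 ± 0.255 (adjusted p = 0.0397) in WT animals. The mRNA changes were 0.06 in metl-5 and -0.11 in WT animals, not called. For eif-2Bdelta, leaving out 1 library ended the footprint call in metl-5 animals in 4 of 12 fits (adjusted p up to 0.0994) and the footprint call in WT animals in 8 of 12 fits (adjusted p up to 0.168). The WT call was lost without all 6 doubted libraries, with changes of 1.05 (adjusted p = 0.0248) in metl-5 and 0.77 (adjusted p = 0.0706) in WT animals. Part of eif-2Bdelta lies opposite C50F4.8, which bears on its mRNA and not on its strand-specific footprints.

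For eif-2Bbeta, the regulatory beta subunit, translational efficiency rose in metl-5 animals. Its footprint level was 82.9, 64.6 and 106 scaled CPM at 37 °C against 47.0, 56.0 and 54.5 at 20 °C in metl-5 animals, and 73.5, 60.3 and 111 at 37 °C against 41.9, 53.3 and 56.8 at 20 °C in WT animals. Its mRNA level was 18.5, 29.2 and 29.9 scaled CPM at 37 °C against 34.6, 34.1 and 64.0 at 20 °C in metl-5 animals, and 27.9, 38.3 and 28.1 at 37 °C against 30.9, 41.6 and 51.8 at 20 °C in WT animals. In metl-5 animals the 37 °C libraries were thus all above the 20 °C libraries in footprints and all below them in mRNA, and in WT animals the mRNA libraries overlapped. The changes of translational efficiency were 1.46 ± 0.406 (adjusted p = 0.0137) in metl-5 and 1.08 ± 0.404 (adjusted p = 0.064) in WT animals. Leaving out the mRNA libraries numbered 3, they were 1.20 (adjusted p = 0.067) in metl-5 and 0.80 (adjusted p = 0.222) in WT animals. For eif-2Bbeta, leaving out 1 library ended the efficiency call in metl-5 animals in 1 of 24 fits (adjusted p up to 0.0531, without metl-5 20 °C mRNA replicate 3). The footprint changes of the other members were 0.65 in metl-5 and 0.69 in WT animals for eif-2Balpha. They were 0.56 in metl-5 and 0.67 in WT animals for eif-2Bgamma, and 0.71 in metl-5 and 0.55 in WT animals for eif-2Bepsilon. None of these was called in the main edgeR fit (all libraries, TMM scaling, no block). Translational efficiency was called higher for 1 of the 5 in metl-5 and 0 in WT animals, against 10.4% and 10.7% of all genes. With library totals alone, where the median of all genes was also above 0, these counts were 4 and 4 (25.3% and 23.1% of all genes in either direction). Without the 2 libraries of intermediate hsp-70 they were 1 and 4 (23.0% and 27.1%). Leaving out all 6 doubted libraries, they were 0 and 0 (14.0% and 12.5%).

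In mammals eIF2A and eIF2D can deliver methionyl-tRNA without eIF2. Footprints of eif-2A fell in metl-5 animals and its translational efficiency fell in both strains, while the translational efficiency of eif-2D rose in metl-5 animals. The eif-2A footprint level was 43.4, 49.2 and 59.7 scaled CPM at 37 °C against 128, 84.9 and 100.1 at 20 °C in metl-5 animals. WT animals had 46.0, 96.3 and 54.3 at 37 °C against 104, 109.8 and 130.1 at 20 °C. Every 37 °C library lay below every 20 °C library of its strain, and WT 37 °C replicate 2, of intermediate hsp-70, lay closest to the 20 °C libraries. The eif-2A mRNA level was 164, 254 and 313 scaled CPM at 37 °C against 152, 191 and 112 at 20 °C in metl-5 animals, and 169, 221 and 301 at 37 °C against 122, 201 and 130.2 at 20 °C in WT animals, with overlap in both strains. Footprint changes were -1.04 ± 0.277 (adjusted p = 0.0208) in metl-5 and -0.80 ± 0.275 (adjusted p = 0.0594) in WT animals, where the block called the fall. The changes of translational efficiency were -1.72 ± 0.424 (adjusted p = 0.00694) in metl-5 and -1.42 ± 0.422 (adjusted p = 0.0214) in WT animals. Without the 6 doubted footprint libraries the efficiency changes were -2.08 (adjusted p = 0.0176) in metl-5 and -1.98 (adjusted p = 0.0239) in WT animals. Without the mRNA libraries numbered 3 they were -1.33 (adjusted p = 0.0644) in metl-5 and -1.09 (adjusted p = 0.128) in WT animals. For eif-2A, leaving out 1 library ended the footprint call in metl-5 animals in 4 of 12 fits (adjusted p up to 0.0921), the efficiency call in metl-5 animals in 0 of 24 fits and the efficiency call in WT animals in 5 of 24 fits (adjusted p up to 0.0731). The neighbouring gene frpr-21 overlaps eif-2A on the other strand, so the mRNA part may hold reads of either gene.

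The log2 ratio of the footprint to the mRNA level, relative to the median gene, was 1.35, 0.24 and 1.93 at 37 °C against -0.36, -0.09 and 0.34 at 20 °C in metl-5 animals, and 1.08, 0.26 and 1.46 at 37 °C against -0.19, -0.54 and 0.34 at 20 °C in WT animals for eif-2D in the 3 library pairs of each group. The groups overlapped in both strains, with replicate 2 the lowest of the 37 °C pairs. The efficiency changes of eif-2D were 1.13 ± 0.384 (adjusted p = 0.0391) in metl-5 and 1.01 ± 0.383 (adjusted p = 0.0676) in WT animals. Without the 6 doubted libraries they were 1.26 (adjusted p = 0.0778) in metl-5 and 0.95 (adjusted p = 0.202) in WT animals. For eif-2D, leaving out 1 library ended the efficiency call in metl-5 animals in 8 of 24 fits (adjusted p up to 0.129). The replicate block ended the call, at 1.10 (adjusted p = 0.0665) in metl-5 and 0.96 (adjusted p = 0.105) in WT animals. Neither its mRNA changes, at -0.74 in metl-5 and -0.52 in WT animals, nor its footprint changes, at 0.39 in metl-5 and 0.50 in WT animals, were called. Its mRNA was called lower in metl-5 animals with the block, at -0.76 (adjusted p = 0.0123) in metl-5 and -0.49 (adjusted p = 0.0842) in WT animals, and with library totals alone, at -1.31 (adjusted p = 0.0161) in metl-5 and -0.98 (adjusted p = 0.0621) in WT animals.

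eIF3 is the largest initiation factor and binds the 43S complex and the mRNA. The 11 genes analysed encode subunits b to l in worm naming. Of these, 5 rose in mRNA in metl-5 animals (10.8% of all genes were called higher) and 4 in WT animals (9.76%), with none lower. In both strains these were eif-3.B, eif-3.D, eif-3.G and eif-3.I, and eif-3.H was called in metl-5 animals. The median mRNA change over the 11 genes was 0.65 in metl-5 and 0.57 in WT animals, and with library totals alone it was 0.04 and 0.09. On that scale none of the 11 was called higher, and eif-3.J was called lower in metl-5 animals, with values of -0.85 (adjusted p = 0.038) in metl-5 and -0.74 (adjusted p = 0.0728) in WT animals. In footprints, eif-3.F rose in both strains and eif-3.D fell in metl-5 animals in the main fit. With the replicate block, eif-3.D was also called lower in WT animals. That fit also called eif-3.E, eif-3.H and eif-3.I higher in both strains and eif-3.L higher in metl-5 animals. It called footprints of 39.5% of all genes in metl-5 and 31.3% in WT animals. The genes that encode the a and m subunits, egl-45 and cif-1, carry other symbols and are not among the 32. Their mRNA changes were 0.70 ± 0.260 (adjusted p = 0.0664) in metl-5 and 0.75 ± 0.260 (adjusted p = 0.0551) in WT animals for egl-45. For cif-1 they were 0.44 ± 0.261 (adjusted p = 0.247) in metl-5 and 0.42 ± 0.261 (adjusted p = 0.268) in WT animals.

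eif-3.D encodes the d subunit, which in human cells can itself bind the cap of some mRNAs. Its mRNA level was 231, 219 and 318 scaled CPM at 37 °C against 115, 108 and 112 at 20 °C in metl-5 animals, and 211, 193 and 287 at 37 °C against 122, 136 and 117 at 20 °C in WT animals. The footprint libraries held 221, 220.4 and 282 scaled CPM at 37 °C against 428, 361 and 478 at 20 °C in metl-5 animals, and 237, 335 and 293 at 37 °C against 386, 432 and 478 at 20 °C in WT animals. The temperatures did not overlap in either strain or assay, with mRNA higher and footprints lower at 37 °C. The mRNA changes were 1.19 ± 0.221 (adjusted p = 0.00201) in metl-5 and 0.88 ± 0.219 (adjusted p = 0.0126) in WT animals. The footprint changes were -0.81 ± 0.207 (adjusted p = 0.0183) in metl-5 and -0.58 ± 0.206 (adjusted p = 0.0637) in WT animals, where the block called the fall. The ratio of the footprint to the mRNA level, relative to the median gene, was -0.49, -0.46 and -0.55 at 37 °C against 1.31, 1.18 and 1.57 at 20 °C in metl-5 animals, and -0.24, 0.33 and -0.34 at 37 °C against 1.19, 1.07 and 1.5 at 20 °C in WT animals on the log2 scale. Translational efficiency fell, with changes of -2.0 ± 0.295 (adjusted p = 0.000336) in metl-5 and -1.47 ± 0.294 (adjusted p = 0.00215) in WT animals. This call held in both strains under each of the 10 other settings run and in each of the 24 fits that left out 1 library, including those without the 6 doubted footprint libraries (-2.23 in metl-5 and -1.78 in WT animals) and without the mRNA libraries numbered 3 (-1.83 in metl-5 and -1.24 in WT animals). For eif-3.D, leaving out 1 library ended the mRNA call in metl-5 animals in 0 of 12 fits, the mRNA call in WT animals in 2 of 12 fits (adjusted p up to 0.0772, without WT 20 °C mRNA replicate 3 or WT 37 °C mRNA replicate 3) and the footprint call in metl-5 animals in 3 of 12 fits (adjusted p up to 0.0756, without metl-5 20 °C footprint replicate 1 or metl-5 20 °C footprint replicate 3 or metl-5 37 °C footprint replicate 1). A stretch of 24 bases of eif-3.D lies opposite rpap-2.

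The b, g and i subunits form a module of eIF3 that contacts the scanning ribosome. For eif-3.B the mRNA level was 245, 243 and 336 scaled CPM at 37 °C against 127, 135 and 79.9 at 20 °C in metl-5 animals, and 218, 216 and 321 at 37 °C against 126, 149 and 80.4 at 20 °C in WT animals. For eif-3.I it was 206, 174 and 305 scaled CPM at 37 °C against 97.8, 102 and 102 at 20 °C in metl-5 animals, and 216, 167 and 281 at 37 °C against 98.6, 95.6 and 105 at 20 °C in WT animals. In both genes the 37 °C libraries lay above the 20 °C libraries of each strain. The mRNA changes were 1.27 ± 0.281 (adjusted p = 0.00584) in metl-5 and 1.09 ± 0.280 (adjusted p = 0.0151) in WT animals for eif-3.B. Those of eif-3.I were 1.18 ± 0.243 (adjusted p = 0.00395) in metl-5 and 1.15 ± 0.243 (adjusted p = 0.00513) in WT animals. With the mRNA libraries numbered 3 left out none of these was called, with changes of 0.90 (adjusted p = 0.0726) in metl-5 and 0.66 (adjusted p = 0.177) in WT animals for eif-3.B. For eif-3.I they were 0.92 (adjusted p = 0.0761) in metl-5 and 0.98 (adjusted p = 0.0702) in WT animals. The footprint level of eif-3.B was 418, 304 and 437 scaled CPM at 37 °C against 483, 417 and 558 at 20 °C in metl-5 animals, and 363, 439.9 and 452 at 37 °C against 445, 501 and 559.7 at 20 °C in WT animals, with overlap in both strains. Its translational efficiency fell, with changes of -1.60 ± 0.359 (adjusted p = 0.00362) in metl-5 and -1.36 ± 0.358 (adjusted p = 0.0111) in WT animals, while that of eif-3.I did not pass, at -0.47 in metl-5 and -0.49 in WT animals. For eif-3.B, leaving out 1 library ended the mRNA call in metl-5 animals in 0 of 12 fits and the mRNA call in WT animals in 2 of 12 fits (adjusted p up to 0.0822, without WT 20 °C mRNA replicate 3 or WT 37 °C mRNA replicate 3). For eif-3.I, leaving out 1 library ended the mRNA call in metl-5 animals in 0 of 12 fits and the mRNA call in WT animals in 0 of 12 fits. The mRNA changes of eif-3.G were 0.88 ± 0.251 (adjusted p = 0.023) in metl-5 and 0.78 ± 0.251 (adjusted p = 0.0412) in WT animals. For eif-3.G, leaving out 1 library ended the mRNA call in metl-5 animals in 3 of 12 fits (adjusted p up to 0.099, without metl-5 20 °C mRNA replicate 3 or metl-5 37 °C mRNA replicate 1 or metl-5 37 °C mRNA replicate 3) and the mRNA call in WT animals in 7 of 12 fits (adjusted p up to 0.172).

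eif-3.F encodes a core subunit with an MPN domain. In footprints the gene had 348, 267 and 333 scaled CPM at 37 °C against 190.0, 212 and 169 at 20 °C in metl-5 animals. In WT animals the values were 349, 236 and 372 at 37 °C against 178, 217 and 193 at 20 °C. Every 37 °C library was above the 20 °C libraries of its strain. The footprint changes were 0.73 ± 0.214 (adjusted p = 0.0272) in metl-5 and 0.70 ± 0.213 (adjusted p = 0.0429) in WT animals. Without the 6 doubted libraries they were 0.93 (adjusted p = 0.0294) in metl-5 and 0.88 (adjusted p = 0.0384) in WT animals. For eif-3.F, leaving out 1 library ended the footprint call in metl-5 animals in 4 of 12 fits (adjusted p up to 0.105) and the footprint call in WT animals in 8 of 12 fits (adjusted p up to 0.16). eif-3.H encodes the other MPN subunit, and its mRNA at 20 °C was 46.9, 51.8 and 17.1 scaled CPM in metl-5 and 43.6, 59.4 and 15.3 in WT animals, replicate 3 being far below the others in both. The mRNA changes of eif-3.H were 1.29 ± 0.423 (adjusted p = 0.0421) in metl-5 and 1.05 ± 0.421 (adjusted p = 0.0924) in WT animals with replicate 3, and 0.74 (adjusted p = 0.144) in metl-5 and 0.51 (adjusted p = 0.316) in WT animals without it. For eif-3.H, leaving out 1 library ended the mRNA call in metl-5 animals in 7 of 12 fits (adjusted p up to 0.147). Replicate 3 stood apart in the other direction for eif-3.C, eif-3.J, eif-3.K and eif-3.L. The mRNA of eif-3.C was 178, 223 and 338 scaled CPM at 37 °C against 204, 188 and 328 at 20 °C in metl-5 animals, and 175, 183 and 345 at 37 °C against 164, 188 and 333 at 20 °C in WT animals, with replicate 3 highest in all 4 groups. For eif-3.C, eif-3.E, eif-3.J, eif-3.K and eif-3.L no change was called in any assay in the main edgeR fit (all libraries, TMM scaling, no block). Their footprint values were all positive, from 0.35 to 0.75 in metl-5 and from 0.29 to 0.80 in WT animals.

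The 5 eIF4E genes encode cap-binding proteins. ife-1 (a germline form needed for sperm), ife-3 (the form closest to mammalian eIF4E) and ife-5 (germline) are set beside ife-2 (the main somatic form) and ife-4 (found in neurons and muscle). For ife-1 the mRNA level was 592, 441 and 517 scaled CPM at 37 °C against 299, 256 and 234 at 20 °C in metl-5 animals, and 614, 455 and 533 at 37 °C against 337, 353 and 246 at 20 °C in WT animals. Its footprint level was 479, 504 and 526 scaled CPM at 37 °C against 501, 533 and 533 at 20 °C in metl-5 animals, and 473, 532 and 566 at 37 °C against 480.1, 558 and 585 at 20 °C in WT animals. The mRNA libraries of the temperatures were apart in both strains, and the footprint libraries overlapped. Its mRNA rose, with changes of 0.97 ± 0.227 (adjusted p = 0.00813) in metl-5 and 0.78 ± 0.227 (adjusted p = 0.0273) in WT animals, while its footprint changes were -0.05 in metl-5 and -0.05 in WT animals. Its translational efficiency fell, with changes of -1.03 ± 0.276 (adjusted p = 0.0111) in metl-5 and -0.83 ± 0.276 (adjusted p = 0.0374) in WT animals. Leaving out the mRNA libraries numbered 3, the efficiency changes were -0.96 (adjusted p = 0.0525) in metl-5 and -0.69 (adjusted p = 0.154) in WT animals. The replicate block gave -1.03 (adjusted p = 0.0252) in metl-5 and -0.83 (adjusted p = 0.0608) in WT animals. For ife-1, leaving out 1 library ended the mRNA call in metl-5 animals in 0 of 12 fits, the mRNA call in WT animals in 3 of 12 fits (adjusted p up to 0.119, without WT 20 °C mRNA replicate 3 or WT 37 °C mRNA replicate 1 or WT 37 °C mRNA replicate 3), the efficiency call in metl-5 animals in 0 of 24 fits and the efficiency call in WT animals in 7 of 24 fits (adjusted p up to 0.105). With library totals alone the changes were 0.37 in metl-5 and 0.28 in WT animals for mRNA and -0.34 in metl-5 and -0.23 in WT animals for efficiency, none called. The gene dro-1 overlaps 246 of the 995 exon bases of ife-1 on the same strand, so the strand cannot separate reads there. This may bear on the counts of ife-1 and on its level per kb.

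For ife-2 the mRNA level was 53.7, 45.1 and 51.3 scaled CPM at 37 °C against 39.1, 36.1 and 40.7 at 20 °C in metl-5 animals. The WT values were 73.7, 51.4 and 68.6 at 37 °C against 44.1, 41.9 and 36.4 at 20 °C. The temperatures did not overlap in either strain, and the highest values were those of WT 37 °C replicates 1 and 3. ife-2 mRNA rose in WT animals, and the changes were 0.37 ± 0.204 (adjusted p = 0.209) in metl-5 and 0.66 ± 0.204 (adjusted p = 0.0343) in WT animals. For ife-2, leaving out 1 library ended the mRNA call in WT animals in 5 of 12 fits (adjusted p up to 0.132). Its footprints were 87.7, 92.9 and 113 scaled CPM at 37 °C against 95.9, 78.3 and 90.6 at 20 °C in metl-5 animals, and 116, 84.9 and 103 at 37 °C against 105, 89.9 and 108 at 20 °C in WT animals, with overlap and changes of 0.15 in metl-5 and 0.00 in WT animals.

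ife-3 mRNA rose in metl-5 animals. Its mRNA level was 201, 222 and 242 scaled CPM at 37 °C against 124, 139 and 65.4 at 20 °C in metl-5 animals. WT animals had 175, 190.2 and 252 at 37 °C against 114, 183 and 68.1 at 20 °C. Replicate 3 was the lowest at 20 °C and the highest at 37 °C in both strains, and in WT animals the temperatures overlapped. The mRNA changes were 1.02 ± 0.329 (adjusted p = 0.0387) in metl-5 and 0.76 ± 0.327 (adjusted p = 0.116) in WT animals. Without the mRNA libraries numbered 3 they were 0.69 (adjusted p = 0.193) in metl-5 and 0.30 (adjusted p = 0.601) in WT animals. For ife-3, leaving out 1 library ended the mRNA call in metl-5 animals in 5 of 12 fits (adjusted p up to 0.146). The footprint libraries held 734, 665 and 1043 scaled CPM at 37 °C against 504, 545 and 559.8 at 20 °C in metl-5 animals. In WT animals the values were 545, 599 and 1048 at 37 °C against 373, 562 and 567 at 20 °C. The temperatures were apart in metl-5 and overlapped in WT animals, and the footprint changes, 0.60 ± 0.283 (adjusted p = 0.122) in metl-5 and 0.54 ± 0.283 (adjusted p = 0.169) in WT animals, were not called. The gene idpp-2 overlaps ife-3 on the other strand.

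The scarce forms showed no call in any assay in the main fit. For ife-4 the mRNA level was 5.14, 4.1 and 5.73 scaled CPM at 37 °C against 3.82, 3.97 and 5.14 at 20 °C in metl-5 animals, and 6.11, 2.52 and 4.96 at 37 °C against 3.29, 3.84 and 3.46 at 20 °C in WT animals. In footprints the gene had 13.3, 11.6 and 20.8 scaled CPM at 37 °C against 11.4, 11.9 and 13.0 at 20 °C in metl-5 animals, and 18.4, 11.4 and 19.2 at 37 °C against 11, 13.2 and 12.3 at 20 °C in WT animals. Temperatures overlapped in both assays and strains, and the mRNA changes were 0.21 ± 0.390 (adjusted p = 0.744) in metl-5 and 0.35 ± 0.393 (adjusted p = 0.559) in WT animals. For ife-5 the mRNA level was 8.05, 9.06 and 8.93 scaled CPM at 37 °C against 7.80, 10.7 and 5.25 at 20 °C in metl-5 animals, and 11.9, 8.40 and 7.71 at 37 °C against 10.04, 10.1 and 8.23 at 20 °C in WT animals. Its footprint level was 10.8, 6.30 and 10.4 scaled CPM at 37 °C against 6.43, 5.39 and 7.40 at 20 °C in metl-5 animals, and 10.4, 5.84 and 11.2 at 37 °C against 7.29, 6.39 and 7.38 at 20 °C in WT animals. Here too the temperatures overlapped, with mRNA changes of 0.13 ± 0.334 (adjusted p = 0.817) in metl-5 and -0.02 ± 0.334 (adjusted p = 0.974) in WT animals. Differences that are small beside these SEs could not be called.

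**Figure D3:**
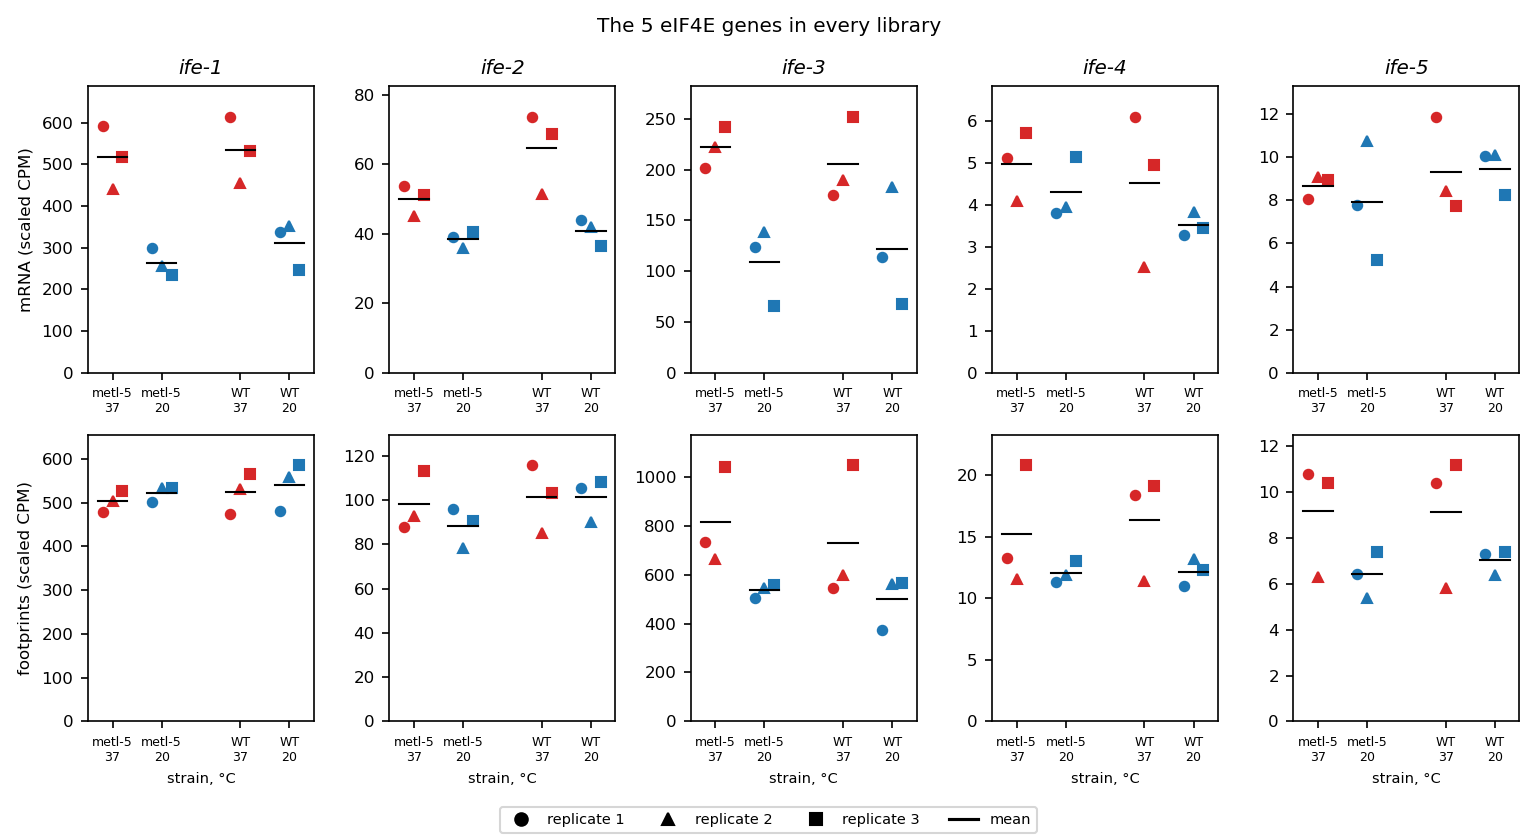
Scaled CPM of the 5 eIF4E genes in every mRNA library (top) and footprint library (bottom), with metl-5 left of WT, 37 °C (red) left of 20 °C (blue) within each strain, symbols for replicate numbers and bars for the mean of 3 libraries. The mRNA of ife-1 is higher in all 37 °C libraries while its footprints lie between 473 and 585 scaled CPM in every group.

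ifg-1 is the gene for eIF4G, the scaffold between the cap-binding protein and the ribosome, and is known in C. elegans for the long life of animals in which it is reduced. Its mRNA and its footprints fell in both strains. The mRNA level was 72.9, 110.2 and 86.8 scaled CPM at 37 °C against 209, 244 and 329 at 20 °C in metl-5 animals, and 66.0, 121 and 99.5 at 37 °C against 177, 215 and 349 at 20 °C in WT animals. The footprint level was 359, 302 and 361 scaled CPM at 37 °C against 681, 612 and 834 at 20 °C in metl-5 animals, and 366, 567 and 351 at 37 °C against 658, 711 and 829 at 20 °C in WT animals. Every 37 °C library was below every 20 °C library of its strain in both assays, and in the footprints WT 37 °C replicate 2, of intermediate hsp-70, was the closest to the 20 °C values. The mRNA changes were -1.53 ± 0.299 (adjusted p = 0.00283) in metl-5 and -1.37 ± 0.298 (adjusted p = 0.00587) in WT animals, the lowest among the 32 genes in both strains. They were called with library totals alone and in each of the 12 fits that left out 1 mRNA library, and were -1.31 (adjusted p = 0.058) in metl-5 and -1.07 (adjusted p = 0.112) in WT animals without the mRNA libraries numbered 3. The footprint changes were -1.06 ± 0.231 (adjusted p = 0.0127) in metl-5 and -0.78 ± 0.230 (adjusted p = 0.0409) in WT animals. Without the 6 doubted libraries they were -1.10 (adjusted p = 0.0294) in metl-5 and -1.05 (adjusted p = 0.0358) in WT animals. For ifg-1, leaving out 1 library ended the footprint call in metl-5 animals in 2 of 12 fits (adjusted p up to 0.0565, without metl-5 20 °C footprint replicate 1 or metl-5 20 °C footprint replicate 3) and the footprint call in WT animals in 9 of 12 fits (adjusted p up to 0.18). Translational efficiency was not called, at 0.48 in metl-5 and 0.59 in WT animals.

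The eIF5A genes rose in mRNA in metl-5 animals and fell in translational efficiency in both strains. For iff-1, the germline form, the mRNA level was 3102, 2356 and 2883 scaled CPM at 37 °C against 1503, 1108 and 1864 at 20 °C in metl-5 animals, and 2946, 2259 and 2803 at 37 °C against 1774, 1690.2 and 1992 at 20 °C in WT animals. The footprint level was 322, 401 and 333 scaled CPM at 37 °C against 1709, 1233 and 1410.5 at 20 °C in metl-5 animals, and 246, 1266 and 330.4 at 37 °C against 1404, 1814 and 1601 at 20 °C in WT animals. Temperatures did not overlap in either strain, with mRNA higher and footprints lower at 37 °C, and WT 37 °C replicate 2, the library of intermediate hsp-70, lay near the 20 °C footprint values. The mRNA changes were 0.90 ± 0.248 (adjusted p = 0.0193) in metl-5 and 0.55 ± 0.246 (adjusted p = 0.126) in WT animals. The footprint changes were -2.04 ± 0.482 (adjusted p = 0.0148) in metl-5 and -1.39 ± 0.472 (adjusted p = 0.0582) in WT animals, where the block called the fall. Without the 2 libraries of intermediate hsp-70 they were -2.12 (adjusted p = 0.000104) in metl-5 and -2.48 (adjusted p = 8.76e-05) in WT animals. The changes of translational efficiency were -2.94 ± 0.555 (adjusted p = 0.00117) in metl-5 and -1.95 ± 0.548 (adjusted p = 0.0157) in WT animals. Without the 6 doubted libraries they were -3.18 (adjusted p = 0.00038) in metl-5 and -3.19 (adjusted p = 0.000436) in WT animals. For iff-1, leaving out 1 library ended the mRNA call in metl-5 animals in 4 of 12 fits (adjusted p up to 0.0747), the footprint call in metl-5 animals in 4 of 12 fits (adjusted p up to 0.0604), the efficiency call in metl-5 animals in 0 of 24 fits and the efficiency call in WT animals in 1 of 24 fits (adjusted p up to 0.0565, without WT 37 °C footprint replicate 3). With the mRNA libraries numbered 3 left out the efficiency changes were -3.12 (adjusted p = 0.0141) in metl-5 and -1.99 (adjusted p = 0.0684) in WT animals. A non-coding gene, T05G5.17, overlaps iff-1 on the other strand, which bears on the mRNA counts.

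Germline markers were read beside iff-1. Of the 4 (glh-1, pgl-1, pgl-3 and gld-1), 1 was called higher in mRNA in each strain (pgl-3), 1 was called higher in footprints in each strain (pgl-3), and 1 lower in footprints in metl-5 animals (gld-1). Of all genes, mRNA of 10.8% and 9.76% was called higher in metl-5 and WT animals. Footprints of 12.2% and 9.78% were called higher, and of 14.7% and 6.93% lower. The summed mRNA level of the 4 markers was 1253 to 1720.4 scaled CPM at 37 °C against 1155 to 1349 at 20 °C in metl-5 animals, and 999 to 1737 against 1032 to 1529 in WT animals. The summed footprint level was 1971 to 3520.1 against 2102 to 2748 in metl-5, and 2177 to 3469 against 1889.5 to 2536 in WT animals. None was at 0 in any group, the sums overlapped between temperatures, and their part in the iff-1 values was not tested.

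iff-2, the somatic form, had an mRNA level of 606, 416 and 701 scaled CPM at 37 °C against 231, 199.5 and 61.4 at 20 °C in metl-5 animals, and 942, 429 and 658 at 37 °C against 430.0, 255 and 58.2 at 20 °C in WT animals. The footprint libraries held 159, 214 and 184 scaled CPM at 37 °C against 311, 226 and 356 at 20 °C in metl-5 animals, and 285, 255 and 163 at 37 °C against 438, 278 and 399 at 20 °C in WT animals. Replicate 3 was far below the other 20 °C mRNA libraries in both strains, the mRNA libraries did not overlap in metl-5 animals, and in WT animals 37 °C replicate 2 lay at the level of 20 °C replicate 1. The footprint libraries of the temperatures were apart in metl-5 and overlapped in WT animals. The mRNA changes were 1.81 ± 0.564 (adjusted p = 0.0343) in metl-5 and 1.45 ± 0.558 (adjusted p = 0.08) in WT animals. Without the libraries numbered 3 they were 1.25 (adjusted p = 0.111) in metl-5 and 1.0 (adjusted p = 0.199) in WT animals. The footprint changes were -0.68 ± 0.265 (adjusted p = 0.0704) in metl-5 and -0.67 ± 0.265 (adjusted p = 0.0862) in WT animals. Translational efficiency fell, with changes of -2.50 ± 0.696 (adjusted p = 0.0139) in metl-5 and -2.12 ± 0.692 (adjusted p = 0.0342) in WT animals. When the mRNA libraries numbered 3 were left out, these changes were -1.94 (adjusted p = 0.0236) in metl-5 and -1.68 (adjusted p = 0.0467) in WT animals. Without the 6 doubted footprint libraries neither was called, at -2.88 (adjusted p = 0.0696) in metl-5 and -2.03 (adjusted p = 0.206) in WT animals. For iff-2, leaving out 1 library ended the mRNA call in metl-5 animals in 5 of 12 fits (adjusted p up to 0.108), the efficiency call in metl-5 animals in 0 of 24 fits and the efficiency call in WT animals in 7 of 24 fits (adjusted p up to 0.105). Muscle markers, which are somatic, gave a summed mRNA level of 2019.9 to 3896 at 37 °C against 1022 to 1362 scaled CPM at 20 °C in metl-5 animals, and 1594 to 3235 against 894 to 1434 in WT animals, with 2 of 2 genes (unc-54 and myo-3) called higher in mRNA and lower in translational efficiency in each strain. Of all genes, mRNA of 10.8% and 9.76% was called higher, and translational efficiency of 10.4% and 8.68% lower, in metl-5 and WT animals. Other somatic markers, given in the closing section, were mixed in mRNA. In both strains col-19 was called higher and the neuronal marker rab-3 lower, and not every intestine marker was called. The part of these somatic markers in the iff-2 values was not tested.

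**Figure D4:**
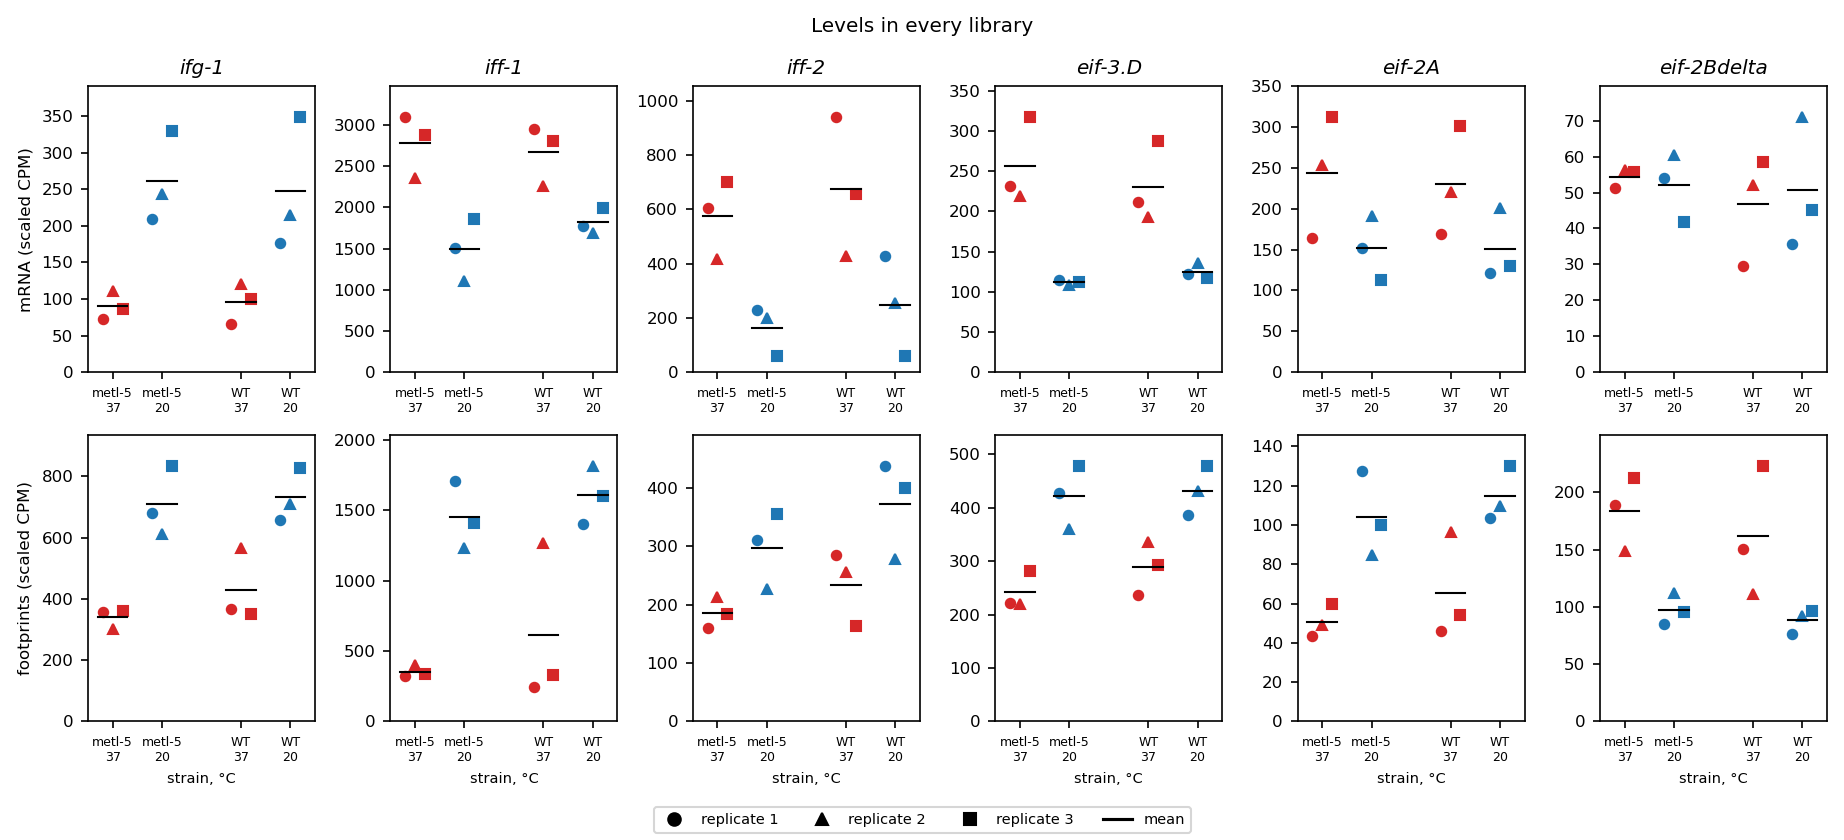
Scaled CPM of ifg-1, iff-1, iff-2, eif-3.D, eif-2A and eif-2Bdelta in every mRNA library (top) and footprint library (bottom), with metl-5 left of WT, 37 °C (red) left of 20 °C (blue) within each strain, symbols for replicate numbers and bars for means of 3 libraries. Both assays are lower at 37 °C for ifg-1, mRNA is higher and footprints lower for iff-1 and eif-3.D, and the WT 37 °C footprint replicate 2 of iff-1 lies near the 20 °C libraries.

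The remaining genes act outside the scanning step. eIF6 keeps the large ribosomal subunit from joining too early. The eif-6 footprint level was 137, 109.8 and 142 scaled CPM at 37 °C against 207, 173 and 210.3 at 20 °C in metl-5 animals. The WT values were 134, 160.3 and 147 at 37 °C against 177, 212 and 192 at 20 °C. Every 37 °C library was below the 20 °C libraries of its strain. Its footprints fell in metl-5 animals, and the changes were -0.60 ± 0.183 (adjusted p = 0.0309) in metl-5 and -0.40 ± 0.182 (adjusted p = 0.127) in WT animals. Its translational efficiency also fell in metl-5 animals, with changes of -0.86 ± 0.259 (adjusted p = 0.0217) in metl-5 and -0.63 ± 0.258 (adjusted p = 0.0916) in WT animals. For eif-6, leaving out 1 library ended the footprint call in metl-5 animals in 5 of 12 fits (adjusted p up to 0.111) and the efficiency call in metl-5 animals in 4 of 24 fits (adjusted p up to 0.058). Neither was called without the 6 doubted footprint libraries, at -0.63 (adjusted p = 0.11) in metl-5 and -0.49 (adjusted p = 0.194) in WT animals for footprints. For efficiency the values were then -0.86 (adjusted p = 0.102) in metl-5 and -0.71 (adjusted p = 0.194) in WT animals. With no filter on low counts the footprint call of eif-6 in metl-5 animals was also lost. Library totals alone also ended the efficiency call, at -0.18 (adjusted p = 0.686) in metl-5 and -0.05 (adjusted p = 0.923) in WT animals. eif-4A3 encodes a helicase of the exon junction complex, which in spite of its name is not the scanning helicase. No change of it was called in the main fit, with mRNA changes of -0.26 in metl-5 and -0.32 in WT animals. With library totals alone its mRNA was called lower in metl-5 animals. The changes were then -0.82 in metl-5 and -0.78 in WT animals.

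The mutant was compared with WT at each temperature, to ask whether loss of METL-5 altered these genes. None of the 32 was called at 20 °C, at 37 °C or in the interaction of strain with temperature, in mRNA, footprints or translational efficiency, by edgeR, by DESeq2 or under any other setting run, and 0 had an unadjusted p under 0.05 in any of these 9 edgeR comparisons. Of all genes, 0.03% were called in mRNA at 20 °C and 0.03% at 37 °C (4 genes each), and 0.0% in the interaction and in the footprint and efficiency comparisons. At 20 °C the changes ranged from -0.60 to 0.29 in mRNA and from -0.32 to 0.21 in footprints. At 37 °C they ranged from -0.37 to 0.30 in mRNA and from -0.80 to 0.20 in footprints. Nearest to a call by unadjusted p was ife-2 mRNA at 37 °C, where the change was -0.37 ± 0.204. The lowest footprint value at 37 °C was that of iff-1, -0.80 ± 0.467, where WT 37 °C replicate 2 held 1266 scaled CPM. Genes whose heat change was called in a single strain were therefore not shown to differ between strains. For iff-1 the interaction in translational efficiency was -1.0 ± 0.769, and for eif-3.D it was -0.53 ± 0.413. In 4 of the footprint libraries transcripts of both strains were present, and those labelled metl-5 37 °C replicates 2 and 3 had WT levels of metl-5. The 37 °C footprint and efficiency comparisons of the strains rest in part on these libraries.

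Genes that work with the initiation factors were counted in the same way at 37 against 20 °C. Only the main fit, with all libraries and no block, is given for these genes. How far their calls hold under the alternative settings is not shown here. Of 11 initiation-associated genes, mRNA of 2 was called higher and of 0 lower in metl-5 animals, and of 3 and 0 in WT animals, where 10.8% and 9.76% of all genes were called higher in metl-5 and WT animals. pab-1, the poly(A)-binding protein that contacts eIF4G, had mRNA changes of 1.30 ± 0.285 (adjusted p = 0.00551) in metl-5 and 1.19 ± 0.285 (adjusted p = 0.0103) in WT animals. It fell in translational efficiency, with -1.07 ± 0.361 (adjusted p = 0.0376) in metl-5 and -1.05 ± 0.361 (adjusted p = 0.0432) in WT animals. abce-1, the ribosome recycling ATPase, rose in mRNA, with changes of 1.35 ± 0.382 (adjusted p = 0.022) in metl-5 and 1.23 ± 0.381 (adjusted p = 0.0351) in WT animals. In footprints 1 of the 11 was higher and 2 lower in metl-5 animals, and 1 and 1 in WT animals, against 12.2% higher and 14.7% lower of all genes in metl-5 and 9.78% and 6.93% in WT animals. The DEAD-box helicase gene laf-1 fell, with footprint changes of -2.03 ± 0.407 (adjusted p = 0.0119) in metl-5 and -1.31 ± 0.398 (adjusted p = 0.0428) in WT animals. The eIF4E-binding gene mxt-1 rose, with 0.99 ± 0.331 (adjusted p = 0.0428) in metl-5 and 1.10 ± 0.331 (adjusted p = 0.0423) in WT animals.

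Of 9 genes for kinases and signalling that act on initiation, mRNA of 1 was higher and of 0 lower in metl-5 animals, and of 1 and 1 (mnk-1) in WT animals, against the same mRNA shares of all genes. pek-1, the eIF2 kinase of the endoplasmic reticulum, had mRNA at 25.3, 41.0 and 33.7 scaled CPM at 37 °C against 4.29, 6.30 and 1.84 at 20 °C in metl-5 animals. WT animals had 23.1, 39.3 and 40.1 at 37 °C against 4.25, 4.68 and 3.46 at 20 °C. The temperatures were far apart in both strains, and the mRNA changes were 3.00 ± 0.403 (adjusted p = 0.000165) in metl-5 and 3.05 ± 0.404 (adjusted p = 0.000146) in WT animals. Its footprints were not called, at 0.70 in metl-5 and 0.29 in WT animals. Its translational efficiency fell, with -2.31 ± 0.622 (adjusted p = 0.0115) in metl-5 and -2.76 ± 0.626 (adjusted p = 0.0044) in WT animals. rheb-1, a GTPase that activates the TOR kinase, rose in footprints, with 1.42 ± 0.304 (adjusted p = 0.0125) in metl-5 and 1.39 ± 0.304 (adjusted p = 0.0265) in WT animals. mnk-1, the kinase that phosphorylates eIF4E, rose in translational efficiency, with 1.73 ± 0.379 (adjusted p = 0.00321) in metl-5 and 1.42 ± 0.378 (adjusted p = 0.0116) in WT animals. The kinase gene gcn-2 was not called in any assay.

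Genes of the translating ribosome gave a further setting. Of 41 rpl- genes (large ribosomal subunit), mRNA of 23 was higher in metl-5 and of 12 in WT animals, against 10.8% and 9.76% of all genes. Translational efficiency of 30 rpl- genes was lower in metl-5 and of 30 in WT animals. Of 30 rps- genes (small subunit), efficiency of 24 was lower in metl-5 and of 20 in WT animals, and of 6 eef- genes (elongation factors) it was lower for 6 in each strain. Of all genes, efficiency was called lower for 10.4% in metl-5 and 8.68% in WT animals. The median efficiency change was -1.66 and -1.42 for rpl-, -1.61 and -1.40 for rps-, and -3.15 and -2.12 for eef- genes in metl-5 and WT animals. For the 32 initiation factor genes it was 0.07 and 0.03, and for all genes tested -0.13 and -0.06. These medians hold for TMM scaling, and with library totals alone that of the 32 genes was 0.74 and 0.63.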

How the data were processed

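The authors deposited 1 table of gene counts per library, with unstranded and strand-specific count columns. Of the strand-specific counts, 50.5 to 50.9% in mRNA and 99.6 to 99.9% in footprint libraries lay on the gene's strand. The submitters' processing notes name STAR and DESeq2 without versions. Sources used here do not state the genome build, annotation or options. The unstranded counts were used for mRNA and those of the gene's strand for footprints. Rows that name no gene held 19.5 to 27.1% of mRNA and 14.7 to 52.0% of footprint entries and were left out. Of 19669 genes, 19332 had a symbol, and lengths came from the WBcel235 annotation. The members and gene lists were chosen with earlier results of these data known.

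R 4.3.3 with edgeR 4.0.16 (limma 3.58.1) was used: filterByExpr, TMM scaling within each assay, glmQLFit over the 12 libraries of an assay and glmQLFTest, with Benjamini-Hochberg adjustment over 13315 genes for mRNA and 12387 for footprints. Translational efficiency was the interaction of assay with temperature or strain in 1 model of all 24 libraries (12079 genes). Levels are counts per 1000000 of the TMM-scaled library total, where plain CPM had been planned. Ratios of footprints to mRNA in a library pair used a pseudocount of 0.5 and the median of all tested genes as 0. The fitting steps were tested on simulated data. Values in every library are given for the eIF4E, eIF4G and eIF5A genes and, within each factor group, for up to 3 called members of smallest adjusted p in each heat comparison. Related genes are named where called with the smallest adjusted p.

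Libraries carrying the same replicate number deviated together among footprints (r of 0.157 to 0.509 between temperatures, 0.308 to 0.601 between strains), between footprints and mRNA (0.128 to 0.651) and among mRNA libraries of the 2 strains (0.146 to 0.514), and less regularly among mRNA libraries of the 2 temperatures, where 5 of 6 pairs were above 0 and 3 above 0.1 (-0.03 to 0.395). Since not every pair passed 0.1, the numbers were not taken to pair mRNA libraries across temperatures. The other kinds of pair all passed 0.1. The main fits held no block in any assay, so the footprint, efficiency and strain comparisons left that pairing out. A block for replicate number was an alternative. The others were DESeq2 1.42.0, RLE scaling, library totals alone, no filter, unstranded footprint counts, fits on the compared groups only, fits without each library in turn, and fits without doubted libraries. Doubted footprint libraries held at least 10 counts of ZK228.3, ZK228.4 or cTel55X.1 against their strain, or had hsp-70 over 10-fold above (20 °C) or over 2-fold below (37 °C) the median footprint library of that temperature. No 2 libraries of a group were alike within sampling noise. The 6 deposited tables of the authors' comparisons were not used. Counts limit precision by sampling, and the depth of each library is in the ranges given above.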

Additional observations from a re-analysis of the deposited data

How the results depend on the processing

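None of the 32 genes was called between strains or in the interaction under any of the alternatives run. For heat, no call changed direction, and the numbers of genes called varied as follows. In mRNA, the 11 higher and 1 lower calls in metl-5 animals became 0 higher and 6 lower with library totals alone. Without the 4 mRNA libraries numbered 3, 1 call was left. The 9 mRNA calls in WT animals became 1, a lower one, with library totals alone and 14 with the replicate block (16 in metl-5). They became 5 when the compared groups alone were fitted (14.9% of all genes) and 0 without the mRNA libraries numbered 3. The block, which called 30.4% and 29.6% of all genes in mRNA, ended no mRNA call. It added eif-1.A and eif-3.F (higher), eif-2Bbeta and eif-2D (lower) in metl-5, and eif-1.A, eif-3.H, ife-3, iff-1 and iff-2 (higher) in WT animals. In footprints, the 8 calls in metl-5 animals became 13 with DESeq2, 16 with the replicate block and 14 with the compared groups alone (36.6% of all genes). The 3 footprint calls in WT animals became 8 with DESeq2, 1 with no filter (10.4%), 13 with the replicate block, 0 with the compared groups alone (10 at an unadjusted p under 0.05, 0.986% of all genes called), 17 without the 2 libraries of intermediate hsp-70 and 5 without the 6 doubted libraries. In translational efficiency, the 10 calls in metl-5 animals became 5 without the mRNA libraries numbered 3 and 5 without the 6 doubted libraries. The 6 efficiency calls in WT animals became 2 with the compared groups alone (12.2%), 2 without the mRNA libraries numbered 3 and 12 without the 2 libraries of intermediate hsp-70. The replicate block gave 9 efficiency calls in metl-5 (2977 of all 12079 genes) and 5 in WT animals (2899 genes). With library totals alone, where the median efficiency change of all genes was also above 0, most efficiency calls were higher ones in both strains, as given above.

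Leaving out 1 library at a time gave 6 to 13 mRNA calls in metl-5 and 2 to 11 in WT animals, 0 to 14 and 0 to 17 footprint calls, and 7 to 12 and 2 to 12 efficiency calls. The share of all genes called in the same fits was 9.21 to 21.2% and 8.57 to 21.8% in mRNA, 0.0 to 34.3% and 0.0 to 38.8% in footprints, and 13.4 to 22.6% and 10.2 to 26.8% in efficiency. In footprints, 0 genes passed in either strain by edgeR without metl-5 20 °C replicate 1 or 3 (8 and 15 in metl-5 at an unadjusted p under 0.05), and 0 in WT animals without any 1 of 6 other footprint libraries (over these 8 fits, 4 to 13 in WT animals at an unadjusted p under 0.05). In the fits with 0 of the 32 called, 0.0 to 2.29% of all genes were called in metl-5 and 0.0 to 10.5% in WT animals. The cause was not tested. Footprint libraries at 37 °C were shallower, and 3 libraries a group limit what can be called.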

Other observations

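Marker genes of single tissues were read at 37 against 20 °C beside the initiation factors, and no list was at 0 in any group. Of all genes, mRNA of 10.8% and 9.76% was called higher in metl-5 and WT animals, and of 9.16% and 8.5% lower. Footprints of 14.7% and 6.93% were called lower. Of 4 intestine markers, mRNA of 1 was called higher in metl-5 and of 1 in WT animals, and footprints of 3 were called lower in metl-5 and of 1 in WT animals. The summed intestine mRNA level was 10705 to 14473 scaled CPM at 37 °C against 5152 to 7931 at 20 °C in metl-5 animals, and 7885 to 13515 against 4970.3 to 6246 in WT animals, with no overlap. The summed intestine footprint level was 5150.1 to 13105 scaled CPM at 37 °C against 19142 to 33630.0 at 20 °C in metl-5 animals, and 3509 to 16527 against 21061 to 27048 in WT animals. The hypodermal collagen gene col-19 rose in mRNA, with changes of 1.71 ± 0.309 (adjusted p = 0.00174) in metl-5 and 1.53 ± 0.308 (adjusted p = 0.00377) in WT animals, and fell in footprints, with -2.02 ± 0.549 (adjusted p = 0.0215) in metl-5 and -1.87 ± 0.546 (adjusted p = 0.0398) in WT animals. Of 3 oocyte markers, mRNA of 1 was called lower in metl-5 and of 1 in WT animals. Of 3 neuronal markers, mRNA of 1 (rab-3) was called lower in metl-5 and of 1 (rab-3) in WT animals, and of none higher. Their summed mRNA level was 192 to 236 scaled CPM at 37 °C against 118 to 169.8 at 20 °C in metl-5 animals, and 192 to 248 against 107 to 188 in WT animals, with no overlap, and snb-1 had mRNA changes of 0.64 ± 0.261 (adjusted p = 0.0975) in metl-5 and 0.59 ± 0.261 (adjusted p = 0.125) in WT animals. Of 3 sperm markers, mRNA of 0 was called higher and of 1 lower in metl-5 animals, and of 0 and 0 in WT animals. The part of these markers in the values of the initiation factor genes was not tested.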
